A study of Arabidopsis thaliana with 24 samples.

Results

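Arabidopsis transcripts that were lower after high light as well as after darkness were examined. They were chosen by the measured values: on the deposited log2 scale, the mean of the 8 high light (HL) arrays had to lie more than 0.9 below the mean of the 8 control light (C) arrays, and the mean of the 8 darkness (D) arrays had to lie more than 0.9 below the same C arrays. This left 112 of 27826 transcripts (0.403%). On this scale a difference of -1 is a halving of the signal.

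Rosettes came from 4.5-week-old *gnat2* plants, which carry the T-DNA insertion SALK_033944 as 1 knockout line in the Col-0 background, and from Col-0 wild-type (WT) plants. All were grown in soil with 8 h of light a day at 120 µmol m-2 s-1, 23 °C and 50% humidity. From 2 h after light onset they spent 2 h in HL (1000 µmol m-2 s-1), in D or in unchanged light (C). Each of the 6 groups (*gnat2* HL, *gnat2* D, *gnat2* C, WT HL, WT D, WT C) had 4 biological replicates, each on its own AraGene-1_0-st array. The knocked-out gene, a plastid acetyltransferase listed as *NSI* in RefSeq, read 1.53 to 2.39 on the 12 *gnat2* arrays and 5.31 to 6.30 on the 12 WT arrays. Of the marker lists, the 4 genes of green leaf tissue averaged 10.97 to 11.16 per array in HL, 11.04 to 11.20 in D and 11.20 to 11.31 in C, and none of the 20 marker genes was among the 112. *SUC2*, a phloem sucrose transporter, was the only marker to cross the limit in HL (-0.96) and stood at 0.04 in D. In whole rosettes, fewer cells of a type and less RNA per cell cannot be told apart.

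Light sets the pace of leaf metabolism and growth, and plants adjust many transcripts within minutes to hours when it is raised or removed. Some of the genes concerned build or loosen the cell wall. Others act in salicylic acid signalling, which tunes immunity, or in iron handling, since chloroplasts hold much of the iron of a leaf and ferritin stores it when it is in excess.

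Every one of the 112 transcripts matched a RefSeq gene of the assembly TAIR10.1 and every one was protein-coding (100%, against 95.2% of all transcripts measured). For 50 of them RefSeq gives a symbol, and the other 62 are named by locus. They lay on all 5 chromosomes, with 29, 19, 24, 16 and 24 on chromosomes 1 to 5. *AT1G47395* and *AT1G47400* were direct neighbours. In 3 more pairs only 1 measured gene lay between the members: *AT1G10640* with *AT1G10657*, *scpl35* with *HEMC*, and *AT5G45650* with *AT5G45670*.

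The HL and D changes that chose the members are given as a description, without a test, and both rest on the same 8 C arrays. HL changes ran from -5.68 to -0.91 with a median of -1.37, so that a typical member kept 38.7% of its C signal. D changes ran from -4.42 to -0.90 with a median of -1.33, which left 39.7%. The median change of all 27826 transcripts was -0.01 in HL and 0.00 in D. Falls beyond -1 in both lights were seen for 83 members, beyond -1.5 for 23 and beyond -2 for 15. In all, 1057 transcripts (3.8%) were below the limit in HL and 1306 (4.69%) in D, while 945 crossed it in HL only and 1194 in D only. Opposite changes were found for 313 transcripts below -0.9 in HL and above 0.9 in D, and for 247 above 0.9 in HL and below -0.9 in D. Transcripts above 0.9 in both lights numbered 33.

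**Figure D1:**
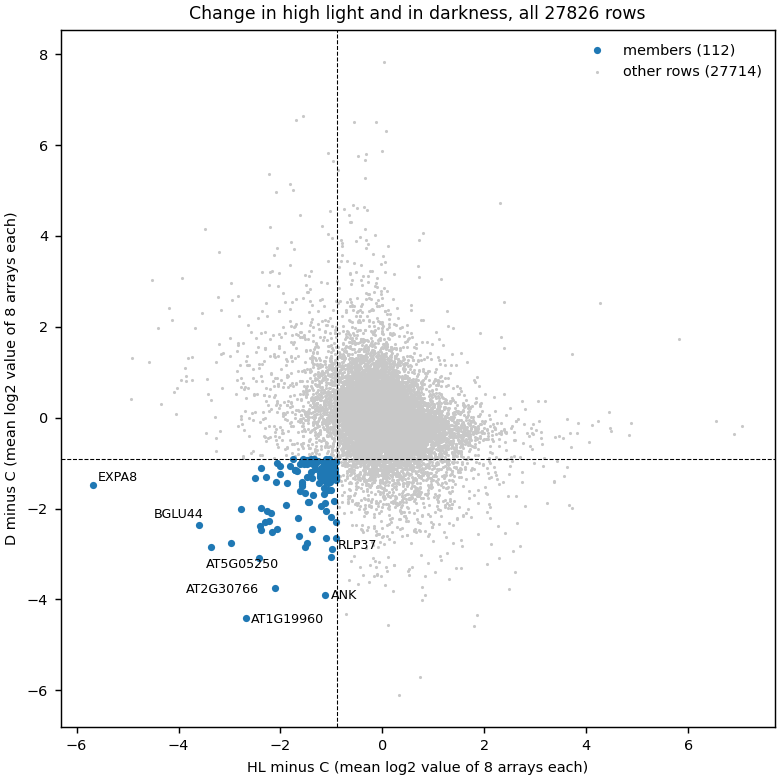
Change in HL (x axis) against change in D (y axis), each as the mean log2 value of 8 arrays minus the mean of the same 8 C arrays, for all 27826 transcripts. Blue points are the 112 members below both dashed limits of -0.9. *EXPA8* stands apart to the left at -5.68 in HL, and *AT1G19960* lies lowest among the members at -4.42 in D.

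All 8 HL arrays lay below all 8 C arrays for 91 of the 112 members, against 6.6% of all transcripts. All 8 D arrays lay below all 8 C arrays for 88 members, against 6.91% of all transcripts. Both held at once for 80 members, against 0.891% of all transcripts. These separations come from the contrasts that made the choice, so nothing is read from them. At the edge of the choice, the last members inside were *BTS* (-1.56 in HL, -0.91 in D), *AT1G53040* (-1.05, -0.91) and *AT1G75460* (-1.76, -0.90). The first transcripts left outside were *AT3G14220* (-0.93 in HL, -0.89 in D), *AT2G39920* (-2.12, -0.89) and *RLK*, AT2G37710 (-0.89, -1.89).

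The members were ranked by the smaller of their HL and D falls. *AT5G05250* led, with 1.35, 2.19 and 2.78 in HL and 1.91, 2.70 and 3.75 in D (lowest, median and highest of 8 arrays), against 4.29, 5.59 and 6.48 in C. It kept 9.7% of its C signal in HL and 13.9% in D. *AT5G03350* followed with 1.22, 1.37 and 1.66 in HL and 1.31, 1.64 and 1.91 in D, against 3.73, 4.47 and 4.74 in C. All of its HL and D values lay below that median. For both genes every HL and every D array lay below every C array.

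*AT1G19960*, which the study's annotation lists as a transcription factor, gave 4.56, 4.89 and 5.14 in HL and 2.55, 3.18 and 3.49 in D, against 7.25, 7.57 and 7.71 in C. All of its HL arrays lay above all of its D arrays, and it kept 15.6% of its C signal in HL and 4.67% in D. *CYP71B2*, a cytochrome P450, had 4.18, 4.56 and 4.93 in HL and 3.69, 4.50 and 4.86 in D, against 6.65, 6.78 and 7.35 in C. Its fall was of nearly one size in both lights (-2.38 in HL, -2.48 in D).

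*BGLU44*, a member of the beta-glucosidase family, had 5.04, 5.67 and 6.03 in HL and 6.22, 6.95 and 7.003 in D, against 8.81, 9.14 and 9.52 in C. It was lowest in HL, where 8.27% of its C signal remained, and 19.6% remained in D. *XDH2*, a xanthine dehydrogenase of purine breakdown, had 2.17, 2.48 and 2.67 in HL and 1.68, 2.65 and 3.18 in D, against 3.94, 4.56 and 5.22 in C. *AT5G45650* changed by -2.23 in HL and -2.27 in D. Not all of the 12 leading members separated fully: *AT1G13609* and *AT1G47395* had at least 1 C array inside the range of the other lights.

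**Figure D2:**
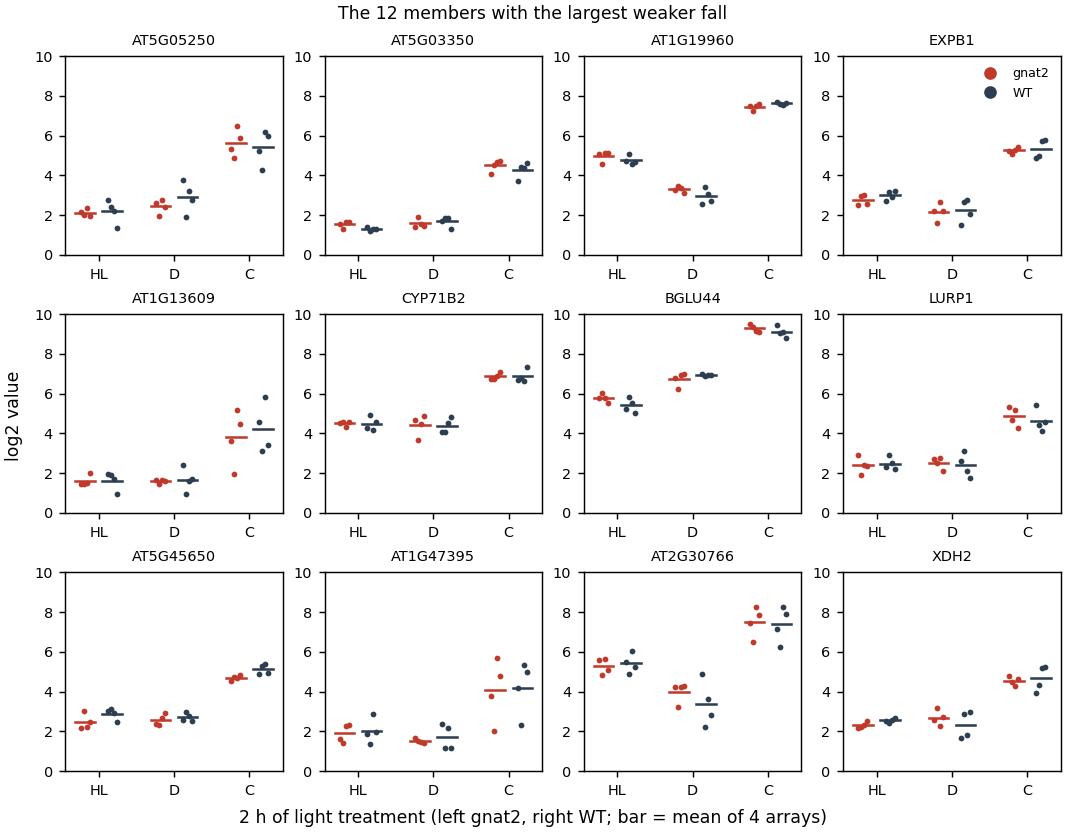
log2 values of the 12 members with the largest smaller fall, by light (x axis), with *gnat2* on the left and WT on the right of each pair. Points are single arrays and bars are means of 4. For *AT5G05250* the C arrays run from 4.29 to 6.48 and the HL arrays from 1.35 to 2.78, and *AT1G47395* shows the wide C spread, from 2.03 to 5.71.

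Among 37 measured expansins, wall-loosening proteins of growing cells, 2 were members (5.41%, against 0.403% of all transcripts). *EXPB1* had 2.52, 2.94 and 3.23 in HL and 1.52, 2.21 and 2.78 in D, against 4.88, 5.26 and 5.80 in C. *EXPA8* had 1.88, 2.18 and 2.92 in HL and 5.14, 6.56 and 6.98 in D, against 7.45, 7.96 and 8.62 in C. *EXPA8* showed the deepest HL fall of any member and kept 1.96% of its C signal there, against 35.6% in D. Its HL mean of 2.29 lay below the median of all array values (2.35), where a further fall is hard to measure, so the HL percentage may be too high. The 37 expansins had medians of -0.09 in HL and -0.04 in D, and *EXPA10* was at 1.98 in HL and -1.04 in D.

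The members included genes of salicylic acid signalling and immunity. A list of 27 such genes was drawn up after the values had been seen, and it therefore serves as a description only. It held 5 members (18.5%), with list medians of -0.26 in HL and -0.38 in D. *LURP1*, named for its late induction upon infection by a downy mildew pathogen, had 1.92, 2.40 and 2.92 in HL and 1.74, 2.56 and 3.10 in D, against 4.13, 4.61 and 5.42 in C. *WRKY54*, a transcription factor acting with *WRKY70*, had 2.88, 3.58 and 3.90 in HL and 2.67, 3.19 and 3.36 in D, against 5.26, 5.49 and 6.14 in C. In both genes the C arrays stood clear of all others.

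*WRKY70* changed by -1.21 in HL and by -1.95 in D, with 4.49 to 5.87 in HL and 3.79 to 5.01 in D, against 5.92 to 6.70 in C. *NPR4*, a salicylic acid receptor that represses defence genes, changed by -1.81 in HL and -1.06 in D. *SIB1*, which binds plastid sigma factor, changed by -0.91 in HL and -1.29 in D, and its arrays overlapped with C in both lights. Its relative *SIB2* stood at -0.69 and -0.72, just outside the limits. The pathogenesis-related gene *PR1* was at 0.02 in HL and 0.07 in D, *EDS1* at -0.54 and -0.60 and *PAD4* at -0.44 and -0.39. Of the 27 listed genes 15 were below 0 in both lights. Others lay above 0 in at least 1 light, such as *NPR3* (-0.86 in HL, 0.80 in D), *WRKY53* (0.11, 1.26) and *EDS5* (0.47, -0.66).

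Of 206 listed receptor kinases and receptor-like proteins 4 were members (1.94%): *RK1*, *CRK5*, *RLP36* and *RLP37*, while the list's medians were -0.11 in HL and 0.00 in D. *RK1* changed by -1.64 in HL and -2.60 in D, and *CRK5*, a cysteine-rich receptor kinase, by -1.09 and -1.34. Outside the lists, *TIR* (AT1G72930), a protein with a Toll/interleukin-1 receptor domain, was at -1.48 and -2.75. It was named from the genotype comparisons given below. Named after their values were seen were *SNC4*, a receptor-like kinase of immunity, at -1.10 and -0.91, and the cyclic nucleotide-gated channel *CNGC11* at -1.02 and -1.04.

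Iron genes were also found among the members. In a list of 28 genes of iron uptake and homeostasis, again drawn up after the values had been seen, 4 were members (14.3%). The list is not exhaustive, so members outside it, above all those named by locus, could act in iron handling without being counted. *BHLH100*, a bHLH factor induced by iron deficiency, had 0.87, 1.63 and 1.97 in HL and 1.67, 1.92 and 3.03 in D, against 1.54, 3.32 and 5.05 in C. *OPT3*, a transporter that loads iron into the phloem, had 5.996, 6.24 and 6.49 in HL and 5.32, 5.93 and 6.07 in D, against 6.88, 7.73 and 8.18 in C. Of these 4 members, only *OPT3* separated fully from C in both lights.

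*PYE*, a bHLH repressor of the iron deficiency response, changed by -1.05 in HL and -1.09 in D, and *BTS*, an E3 ligase that limits that response, by -1.56 and -0.91. The mean of the 4 members moved with the replicate number in C, at 5.34, 4.87, 6.44 and 6.02 in *gnat2* C (replicates 1 to 4) and 5.71, 4.74, 6.27 and 5.38 in WT C. In both genotypes it was lowest on the array numbered 2 and highest on that numbered 3, so the size of the fall differed with the C array it was set against. The related factors *bHLH38*, *bHLH39* and *BHLH101* lay between -0.54 and -0.24 in HL and between -0.46 and -0.18 in D. Their highest C values were 2.03, 2.09 and 2.42, near the median of all array values (2.35). The ferritins *FER1*, *FER3* and *FER4* went the other way, at 3.72, 2.75 and 1.14 in HL and 1.39, 0.38 and 0.25 in D. Other genes of the list parted between the lights: *FRO3*, a ferric reductase, was at -2.77 in HL and 0.88 in D, and *NAS1*, a nicotianamine synthase, at -0.05 and -2.73. The list's medians were -0.20 in HL and -0.21 in D.

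**Figure D3:**
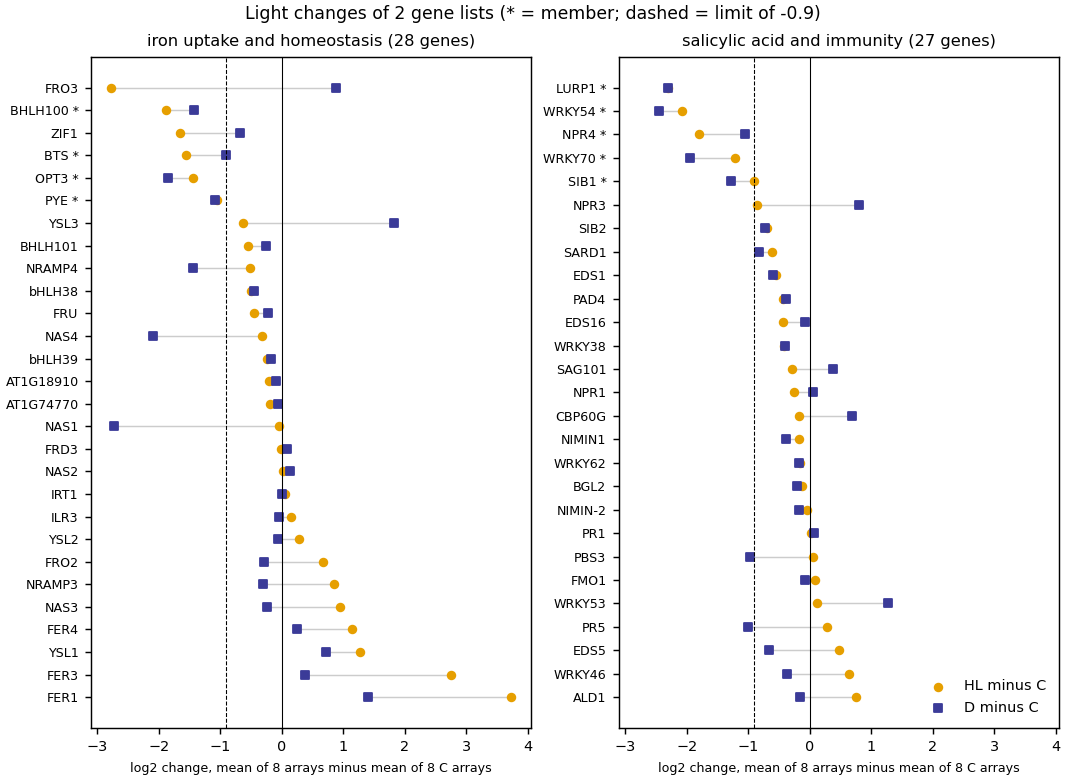
HL change (orange circles) and D change (blue squares) for the 28 iron genes (left) and the 27 salicylic acid and immunity genes (right), in log2 units relative to the mean of 8 C arrays. Members carry an asterisk and the dashed line marks -0.9. Of the iron genes 4 lie left of the line in both lights, whereas *FER1* lies farthest right at 3.72 in HL.

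Among 26 genes of tetrapyrrole and chlorophyll synthesis 2 were members (7.69%), both of the steps that build the ring shared by haem and chlorophyll. *HEMC*, porphobilinogen deaminase, had 7.29, 7.46 and 7.72 in HL and 7.18, 7.74 and 7.85 in D, against 8.44, 8.63 and 8.90 in C. *HEME2*, uroporphyrinogen decarboxylase, changed by -0.91 in HL and -0.98 in D. The whole list had medians of -0.45 in HL and -0.55 in D, with 18 of 26 genes below 0 in both, against 7168 of 27826 transcripts. *PORB*, a protochlorophyllide oxidoreductase, was at -4.05 in HL and 0.08 in D, so this fall was not shared by D. None of the 21 light-harvesting genes was a member.

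In the jasmonate list of 24 genes the 2 members (8.33%) were allene oxide cyclases, which make the jasmonate precursor. *AOC4* had 4.26, 4.44 and 4.59 in HL and 3.31, 3.59 and 4.65 in D, against 5.03, 5.40 and 5.99 in C. *AOC2* changed by -1.06 in HL and -1.59 in D. Both went against the list in HL, whose median was 0.59 there and -0.22 in D. *AOC1* was at -1.56 and -0.55 and *AOC3* at 0.82 and -0.12, and because these are close copies, shared probe signal among them was not tested.

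The other lists held few or no members. There were 3 in 29 bHLH factors (*BHLH100*, *PYE* and *bHLH071*), 1 in 84 homeobox genes (*ATH1*), 1 in 120 auxin response genes (*GH3.9*), 1 in 49 glutathione transferases (*GSTU18*) and 1 in 239 cytochromes P450 (*CYP71B2*). *ATH1*, a BELL-type homeodomain factor, had 3.30, 3.85 and 4.27 in HL and 1.48, 2.49 and 3.21 in D, against 4.88, 5.37 and 5.75 in C. *GSTU18* changed by -1.33 in HL and -1.12 in D. In 19 of the 28 lists fixed for the members there was no member at all, including xyloglucan endotransglucosylases (33 genes), aquaporins (37), MYB factors (132), the core clock (15) and the cell cycle (43). The glucosinolate list (28 genes) had a median of -1.78 in D and -0.12 in HL and no member. Because these lists rest on symbols and synonyms, members named only by locus could belong to such a family without being counted.

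Several enzymes and transporters among the members belonged to no list. *FUM2*, the cytosolic fumarase, had 6.20, 6.55 and 6.91 in HL and 6.24, 6.66 and 6.82 in D, against 7.58, 7.97 and 8.25 in C. *P5CS1*, which opens proline synthesis, changed by -0.95 in HL and -1.83 in D. *VTC4*, of ascorbate synthesis, changed by -1.44 and -1.85 and *ATSPS4F*, a sucrose phosphate synthase, by -1.03 and -1.42. *UGP3*, which supplies sulfolipid synthesis, was at -1.23 and -1.28, and *ABA4*, of neoxanthin synthesis, at -0.92 and -1.19. Amino acid transport was represented by *AAP6* (-1.15 in HL, -1.56 in D) and *UMAMIT44* (-0.92, -2.29).

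Of the 112 members 88 were matched to none of the lists. *AT5G44530* changed by -2.77 in HL and -2.02 in D, and *CSLB04*, of the cellulose synthase-like family, by -2.29 and -1.30. *PGL5*, a 6-phosphogluconolactonase-like protein, changed by -1.58 and -1.46 and *AT1G35710* by -1.61 in both lights. *AT1G18810*, listed in the study's annotation as similar to a phytochrome kinase substrate, changed by -1.58 in HL and -0.95 in D. All of these had every HL array below every C array, while in D some arrays of *CSLB04* and *AT1G18810* overlapped with C.

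The balance of the HL and D falls differed widely between members. The larger fall was in HL for 53 members and in D for 59, and for 69 members the difference was less than 0.5. In HL the fall exceeded that in D by more than 1 for 5 members, led by *EXPA8*, *AT1G54820* (-2.39 in HL, -1.11 in D) and *BGLU44*. In D it exceeded that in HL by more than 1 for 12 members. The most extreme was *ANK* (AT5G54610), an ankyrin-repeat protein, with 5.36, 6.21 and 6.65 in HL and 2.70, 3.08 and 3.89 in D, against 6.67, 7.17 and 7.54 in C. It was followed by *AT1G14250*, a nucleoside phosphatase of the GDA1/CD39 family (-1.003 in HL, -3.06 in D), and *RLP37* (-0.98, -2.89).

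Members also differed in how evenly plants of one group expressed them. The median SD within the C groups was 0.27 for members and 0.21 for all transcripts, and it exceeded 0.5 for 18 members and for 2.07% of all transcripts. Taken for each genotype alone, the members' median SD was 0.24 in C, 0.25 in HL and 0.29 in D. By this median C was not the light with the most uneven values. The mean over all members, taken per array, did vary most in C. Its SD was 0.096 in *gnat2* C and 0.088 in WT C, against 0.015 and 0.032 in HL and 0.064 and 0.034 in D. The widest spread, an SD of 1.67, belonged to *AT2G14247*, with 2.59, 1.85, 5.43 and 4.10 in *gnat2* C (replicates 1 to 4) and 4.60, 1.95, 5.95 and 5.23 in WT C. *BHLH100* had 2.86, 1.87, 5.05 and 3.78 in *gnat2* C and 4.85, 1.54, 4.86 and 2.76 in WT C. *AT1G47395* had 3.80, 2.03, 5.71 and 4.77 in *gnat2* C and 4.16, 2.32, 5.33 and 5.01 in WT C. In all of these the array numbered 2 was the lowest and that numbered 3 the highest in both genotypes.

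The same held for *AT1G13609*, *AT1G47400*, *AT2G30766*, *AT5G05250* and *ORG1*, so that 8 of the 11 members with the widest C spread shared this order. Over all members it held for 11 (9.82%), against 0.787% of all transcripts. This order was seen for 3 members in HL (2.68%, against 0.744% of all transcripts) and 4 in D (3.57%, against 1.17%). The C arrays took part in the choice, so the share in C is a description only. *AT2G14247*, *BHLH100*, *AT1G47395* and *AT1G47400* had HL and D means below the median of all array values (2.35), where an order is hard to see. *AT5G45670*, *GER3* and *AT1G10640* had another order, with the arrays numbered 1 and 2 above those numbered 3 and 4 in both genotypes. *GER3*, a germin-like protein, had 6.75, 7.12, 5.46 and 5.76 in *gnat2* C and 6.77, 6.82, 5.55 and 5.46 in WT C.

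**Figure D4:**
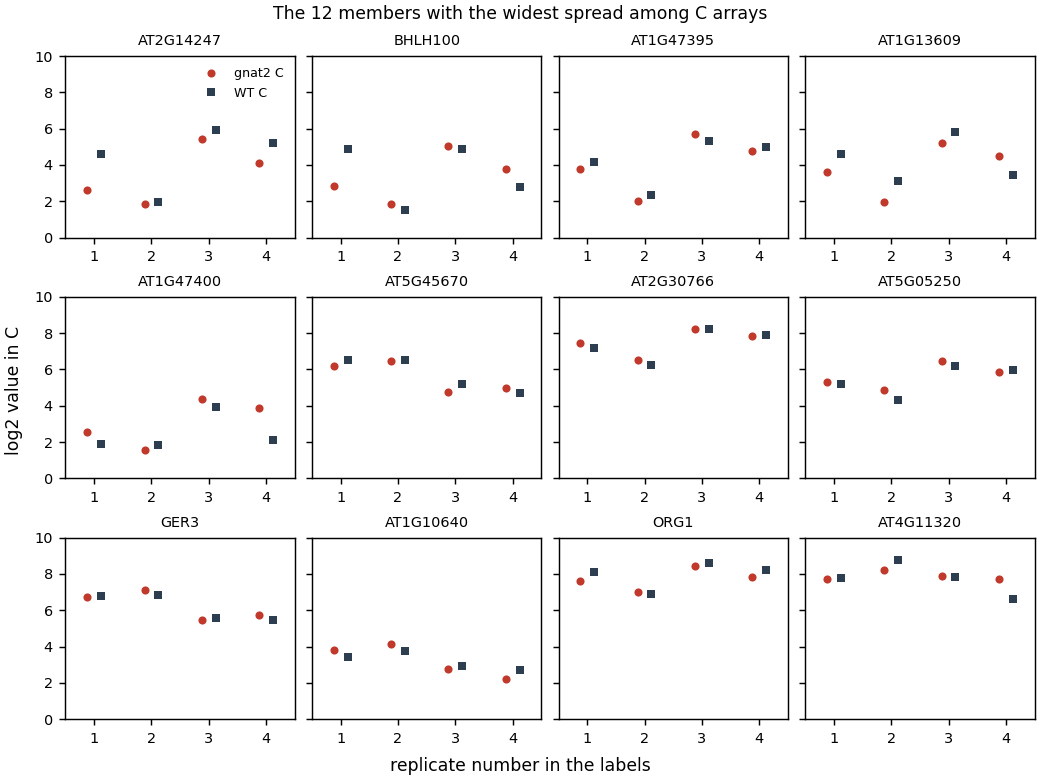
log2 values in C of the 12 members with the widest spread, by the replicate number in the labels (x axis). Red circles are *gnat2* arrays and dark squares WT arrays, 1 of each per number. *AT2G14247* lies at 1.85 and 1.95 on the arrays numbered 2 and at 5.43 and 5.95 on those numbered 3.

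For *AT2G14247* all HL arrays lay between 1.23 and 1.96 and all D arrays between 1.39 and 2.71, where the C arrays numbered 2 also stood. *PYK10*, a root marker, moved with the number as well. On the arrays numbered 2 it read 3.26 in *gnat2* HL, 4.37 in WT HL, 3.26 in *gnat2* D, 3.71 in WT D, 4.01 in *gnat2* C and 3.02 in WT C, and it was the highest of its group there in 5 of the 6 groups. In WT C the array numbered 1 was higher, at 4.13. Its part in the values of these genes was not tested. Without the 6 arrays numbered 2 the same limits gave 113 transcripts.

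Whether the shared fall recurs in plants that had no part in the choice was asked by applying the limits to 1 genotype and measuring the other. With the limits applied to the 12 WT arrays alone, 101 transcripts were chosen. In the 12 *gnat2* arrays 70 of them (69.3%) were again below both limits, and 94 (93.1%) were called lower in HL and in D (limma fit of *gnat2* alone, adjusted p under 0.05), against 3.28% of all transcripts. Taken singly, 96 were called lower in HL (against 14.7% of all transcripts) and 98 in D (against 17.1%). Their medians were -1.45 in HL and -1.4 in D in *gnat2*, and -1.37 and -1.39 in WT, where they were chosen.

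With the limits applied to the *gnat2* arrays, 124 transcripts were chosen. In WT 70 of them (56.5%) were below both limits and 95 (76.6%) were called lower in both lights, against 1.37% of all transcripts. Taken singly, 104 were called lower in HL (against 8.67% of all transcripts) and 103 in D (against 10.2%). Their medians were -1.37 in both lights in *gnat2*, where they were chosen, and -1.27 in HL and -1.24 in D in WT. Of the 112 members, 70 were below the limits in each genotype alone, 25 in *gnat2* only, 16 in WT only and 1 in neither. No member had a mean change above 0 in either genotype: the weakest were -0.70 in HL and -0.60 in D in *gnat2*, and -0.52 in HL and -0.57 in D in WT. This sign and the split of the 112 members reuse the arrays that made the choice, so neither shows a recurrence.

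The difference between *gnat2* and WT was not itself used by the choice, which averaged both genotypes, but a member could pass the limits mainly through 1 genotype. *AT3G55240*, for example, changed by -0.89 in D in *gnat2* and -1.77 in WT, and *GH3.9* by -1.33 in HL in *gnat2* and -0.54 in WT. The counts below therefore describe the members as chosen. All 112 had a C mean above the median of all array values (2.35), and 80 above the upper quartile (4.79). The shares of all transcripts set beside them include the many with lower signal. How far signal level accounts for a difference between the shares was not tested. In HL, limma called 3 of the 112 members (2.68%, against 1.92% of all transcripts), all lower in *gnat2*. *FUM2* had 6.32, 6.24, 6.20 and 6.23 in *gnat2* HL, against 6.81, 6.78, 6.91 and 6.86 in WT HL, a difference of -0.59 ± 0.13 (SE, limma adjusted p = 0.0195). The genotypes did not overlap. *AT1G22630* (-0.50, limma adjusted p = 0.0324) and *AT2G25450* (-0.49, limma adjusted p = 0.0364) differed likewise in HL, and each lost its call under 8 of 32 alternatives. *AT1G22630* was below the HL limit of -0.9 in *gnat2* but not in WT (means of 6.27 in WT C and 5.43 in WT HL). Its HL call is therefore a description only. The call of *FUM2* was lost without replicate 2, 3 or 4 of *gnat2* HL, with limma adjusted p-values up to 0.0605, although the difference stayed between -0.62 and -0.57 under every alternative.

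In D, 4 members were called (3.57%, against 3.92% of all transcripts). *AT5G63180* had 5.004, 5.04, 5.45 and 5.51 in *gnat2* D, against 5.89, 5.80, 6.02 and 6.17 in WT D, a difference of -0.72 ± 0.12 (SE, limma adjusted p = 0.00256). *AT4G27700* was higher in *gnat2* D, with 7.37, 7.48, 7.71 and 7.70 against 6.95, 7.10, 7.21 and 7.05 in WT D (0.49 ± 0.11, limma adjusted p = 0.0112). The bHLH factor *bHLH071* (-0.80, limma adjusted p = 0.0319) and *AT3G46320* (-1.01, limma adjusted p = 0.0372) were lower in *gnat2* D and lost their calls under 7 and 8 of 32 alternatives. For *AT5G63180* and *AT4G27700* the genotypes did not overlap, and both calls were lost under 1 of 32 alternatives, the fit of only the arrays compared (limma adjusted p = 0.065 and 0.102).

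In C, 4 members were called (3.57%, against 1.3% of all transcripts). *AT3G55240* had 3.77, 3.87, 3.76 and 3.64 in *gnat2* C, against 4.56, 5.43, 4.54 and 5.34 in WT C, a difference of -1.21 ± 0.18 (SE, limma adjusted p = 0.00106). *AT1G77960* had 2.77, 3.54, 2.67 and 2.96 in *gnat2* C, against 3.62, 4.63, 4.06 and 4.58 in WT C (-1.24 ± 0.18, limma adjusted p = 0.00116). In both genes every *gnat2* array lay below every WT array. The *AT1G77960* call was lost in the fit of only the arrays compared (limma adjusted p = 0.07), and that of *AT3G55240* under none of 32 alternatives. *MFP1*, a filament-like protein of the thylakoid membrane, was higher in *gnat2* C, with 8.37, 8.14, 8.43 and 8.33 against 7.77, 7.59, 8.11 and 7.96 in WT C (0.46 ± 0.11, limma adjusted p = 0.0418). *GH3.9*, of the family that conjugates auxin and other acids to amino acids, was also higher (0.72 ± 0.18, limma adjusted p = 0.0466). The *MFP1* and *GH3.9* calls in C were lost under 10 and 17 of 32 alternatives. Over all members, the 4 *gnat2* and 4 WT arrays did not overlap for 10 members in HL (against 10.5% of all transcripts), 7 in D (against 9.88%) and 21 in C (against 9.36%).

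**Figure D5:**
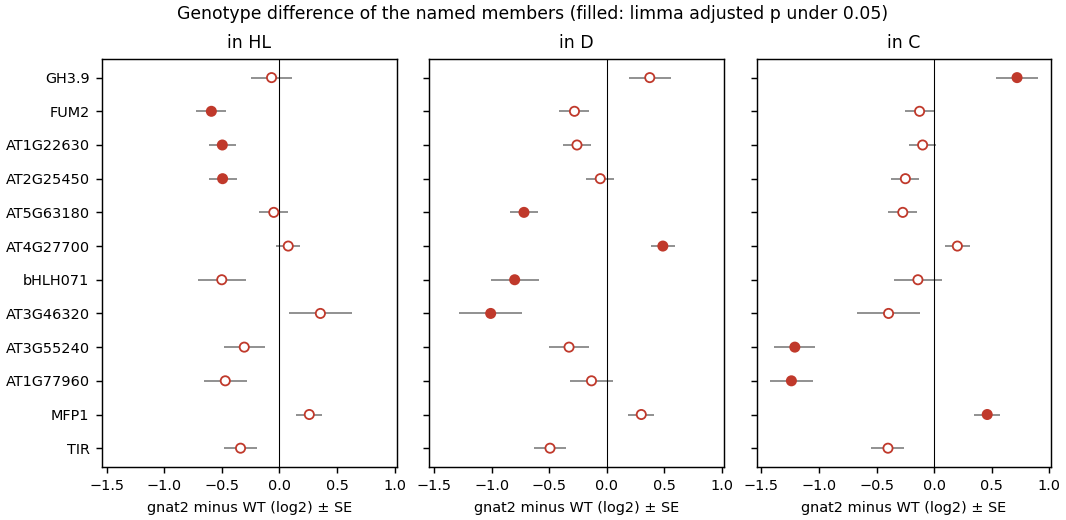
Difference *gnat2* minus WT in HL, D and C (panels, x axis in log2 units with the limma SE as bar) for the 12 members named from the genotype comparisons. Filled points have an adjusted p under 0.05. *AT3G55240* and *AT1G77960* lie at -1.21 and -1.24 in C and nearer to 0 in HL and D.

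Averaged over the 3 lights, with 12 *gnat2* arrays against 12 WT arrays, 22 members were called (19.6%, against 14.7% of all transcripts), of which 16 were lower and 6 higher in *gnat2*. The smallest adjusted p-values belonged to *AT3G55240* (-0.61, limma adjusted p = 0.000375), *AT1G77960* (-0.61, limma adjusted p = 0.000571), *MFP1* (0.34, limma adjusted p = 0.00131), *TIR* (-0.41, limma adjusted p = 0.00193) and *AT5G63180* (-0.35, limma adjusted p = 0.00246). *AOC4* (-0.40) and *AOC2* (-0.39), both allene oxide cyclases among the members, were lower in *gnat2*, as were *HMT3*, a homocysteine methyltransferase (-0.69), and *ABA4* (-0.35). The *AOC2* call was lost under 1 of 31 alternatives, adjustment over the 6 comparisons together (limma adjusted p = 0.0518), and that of *AOC4* under none. *AT1G14250* was higher (0.60). The median difference of the members was -0.08, against -0.01 for all transcripts. None of the 5 salicylic acid members and none of the 4 iron members was called.

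With adjustment within each comparison, no member was called for a light response that differed between the genotypes. For the HL response limma called 0 members (0.0108% of all transcripts), with 16 at an unadjusted p under 0.05 (14.3%, against 6.18% of all transcripts) and a smallest adjusted p of 0.338 for *AT3G55240*. For the D response it called 0 members (0.0288% of all transcripts), with 15 at an unadjusted p under 0.05 (13.4%, against 7.53% of all transcripts) and a smallest adjusted p of 0.198 for *AT1G77960*. *AT1G77960* was at 1.49, 1.49, 1.43 and 1.48 in *gnat2* HL and 1.56, 1.59, 1.70 and 1.61 in *gnat2* D, and at 1.91, 1.73, 2.18 and 1.97 in WT HL and 1.94, 1.49, 1.88 and 1.68 in WT D. All of these HL and D values lay below the median of all array values (2.35), so the difference of its D falls (1.11 ± 0.26, SE) is largely its difference in C. With adjustment over the 6 comparisons together, *AT1G77960* (limma adjusted p = 0.0205) and *GSTU18* (0.80, limma adjusted p = 0.0372) were called for the D response.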

How the data were processed

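RNA of 24 rosette samples was measured on AraGene-1_0-st arrays. The deposited log2 values were made by the authors with a custom chip definition file of TAIR genes, RMA background correction and quantile normalization, which removes differences in total RNA. The build behind that file is not given in the sources used here, so RefSeq TAIR10.1 served only for names, biotypes and gene order (27241 of 27826 transcripts matched). No value was missing and replicates correlated at 0.98 or above.

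limma 3.58.1 (R 4.3.3) was fitted with 1 mean per group over all 24 arrays (18 residual degrees of freedom), two-sided, with Benjamini-Hochberg adjustment over all 27826 transcripts in each comparison and calls at an adjusted p under 0.05. The study's methods name an ANOVA for the transcripts, while its volcano plots of transcript changes give LIMMA p-values. The scripts were tested on simulated data. The 4 arrays per group limit the precision.

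The members, lists and tests were chosen with earlier results of these data known, and the iron and salicylic acid lists were added after values were seen. Lists were matched by symbol or synonym or set by locus, and descriptions were not searched. Members that are named only by locus could therefore be missed by a list. Genes named are the 12 with the largest smaller fall, the leading 2 of each list, up to 5 called per genotype comparison, the 3 with the most unequal falls in each direction and the 3 on either side of the limits. Further genes, such as *FER1*, *PORB*, *SNC4*, *AT2G14247* and the metabolic enzymes, were named after their values were seen. Alternatives were other limits, scalings, filters, weights, a replicate block, an unmoderated test, other adjustment, fewer arrays and each replicate left out. Promoter sequences were not analysed here.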

Additional observations from a re-analysis of the deposited data

Results flagged for a closer look

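Of 47 named members, each in 6 groups of 4 arrays (282 groups), 12 groups had 1 array whose distance from the nearest of the others exceeded Dixon's critical share of the group's range. Chance alone marks about 1 in 20 groups.

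Arrays below the rest of their group were *AT1G19960* in *gnat2* HL, replicate 2 (4.56, the others 5.06 to 5.14), *CYP71B2* in *gnat2* HL, replicate 3 (4.30, the others 4.55 to 4.60), *AT2G30766* in *gnat2* D, replicate 2 (3.25, the others 4.22 to 4.28), and *FUM2* in *gnat2* C, replicate 3 (7.58, the others 7.92 to 7.98). In WT they were *BHLH100* in WT HL, replicate 2 (0.867, the others 1.81 to 1.97), *AT1G75460* in WT HL, replicate 2 (2.88, the others 3.54 to 3.62), and *WRKY70* in WT C, replicate 3 (5.92, the others 6.64 to 6.70).

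Arrays above the rest were *AT1G13609* in *gnat2* HL, replicate 4 (1.99, the others 1.46 to 1.496), *AT3G55240* in *gnat2* HL, replicate 1 (1.89, the others 1.63 to 1.65), *AT1G54820* in *gnat2* D, replicate 3 (4.63, the others 4.11 to 4.18), *GH3.9* in WT C, replicate 3 (3.43, the others 3.00 to 3.07), and *BTS* in WT HL, replicate 1 (6.52, the others 6.20 to 6.23).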

How the results depend on the processing

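The limits gave 70 members when both had to be met in each genotype alone, and 107 to 116 without any one array. With -1 and -0.8 as limits there were 83 and 146. The members called between *gnat2* and WT in HL, 3 as reported, were 5 with the replicate block, 5 with array weights and 1 from only the arrays compared, and 0 to 4 without any one array, with 0 without *gnat2* HL replicate 3 or 4 and 1 without replicate 1. In D, 4 as reported, they were 2 with an unmoderated test and 1 from only the arrays compared, and 2 to 6 without any one array, with 2 without *gnat2* D replicate 1 or WT D replicate 3. In C, 4 as reported, they were 1 from only the arrays compared and 2 to 5 without any one array, with 2 without *gnat2* C replicate 2, 3 or 4, *gnat2* HL replicate 3 or 4, or WT C replicate 2 or 4. Over the 3 lights the count, 22 as reported, was 18 to 23 without any one array and 15 with adjustment over the 6 comparisons together. For the HL response no member was called under any alternative run. For the D response, adjustment over the 6 comparisons together called 2 members, *GSTU18* and *AT1G77960*, and the fits without any one array called 0 to 1, with 1 without WT C replicate 1. Transcripts chosen in WT and called lower in both lights in *gnat2* were 91 to 101 without any one array, and those chosen in *gnat2* and called in WT were 86 to 99.

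Replicate numbers were not taken as pairs. Same-numbered arrays correlated in their deviations from the group means at -0.0142 to 0.24 over 60 pairs, 14 of them above 0.1, and 23 of 24 arrays correlated best with one of their own number. The replicate block gave 5, 4, 5 and 23 calls in HL, D, C and over the 3 lights, 0 for both differences of response, and 95 and 93 for the transcripts chosen in WT and in *gnat2*. Of the 26 genotype calls of named members, 13 held under every alternative, and 90 of 817 refits lost a call with no change of direction. The 94 light changes of named members kept their direction in all 1598 recomputations. These changes made the choice, which left little room for another outcome, so nothing is read from it. The cause of the lost calls was not tested. In HL 20 members and in D 21 had means below the median of all values, 2.35, where arrays give little range for a further fall.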
